A study of Homo sapiens with 24 samples.

Results

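HaCaT cells are human keratinocytes that grow without limit but are not malignant. The comparison described here sets 3 libraries of week 29 against 3 of week 12, all from HaCaT clones transduced with hsa-miR-186 and kept in 100 nM inorganic arsenic (iAs) throughout, which is 6 of the 24 libraries of the study. The other 18 libraries are miR-186 clones in 0 nM iAs and empty-vector clones in 100 or 0 nM iAs, at the same weeks. Every group therefore carries a transduced construct, and each library comes from a clonal line, with 3 lines per construct per the labels. The labels call the 3 libraries of a group independent biological replicates and do not say which clone a replicate number stands for, so p-values measure the spread between these libraries.

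Chronic low-dose iAs is a skin carcinogen, and HaCaT cells kept in it for months are a model of that process. Immediate early genes are switched on within minutes of growth factor, stress or cytokine signalling and encode transcription factors of the AP-1, EGR, NR4A and KLF families. Their messages are short-lived, and many of the enzymes that end the signal, such as the DUSP phosphatases, are induced with them.

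Levels are FPKM, which scale fragments to transcript length and library size, as deposited by the authors. Changes are log2 differences, week 29 minus week 12, on log2(FPKM + 0.5) ± standard error, a scale that understates changes of genes at low levels. A gene is said to have risen or fallen where limma's adjusted p, by Benjamini-Hochberg over the 14228 genes averaging 0.5 FPKM or more, was below 0.05. Read depth behind the FPKM is unknown.

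Of the 14228 genes, 1011 rose (7.11%) and 721 fell (5.07%), and the median change of all genes was 0.02. The falls held the larger changes. They had a median of -0.95 and reached -3.76 at FOSB, while rises had a median of 0.67. The 15 largest falls included immediate early and signal feedback genes, namely FOSB, NR4A1, PTGS2, CSRNP1, EGR1, SMAD7 and EGR2. The others were KRTAP3-1, PTGER4, DEPP1, pseudogenes and noncoding transcripts. The rises included messages of mitochondrial ribosomal proteins, host genes of small nucleolar RNAs, OLR1 and ADAMTS6.

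**Figure D1:**
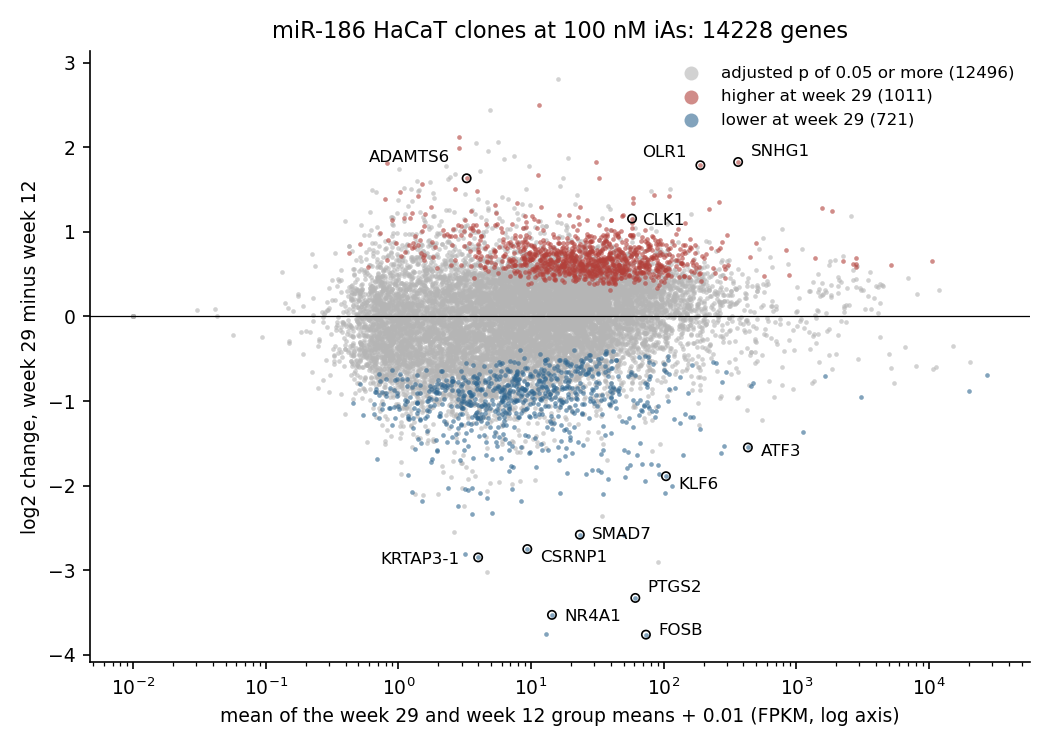
Log2 change between week 29 and week 12 (vertical axis) against the mean of the 2 group means in FPKM (log axis), 1 point per gene, for miR-186 clones in 100 nM iAs. The 1011 genes that rose lie mostly below a change of 1, while falls extend to -3.76 at FOSB.

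These counts rest on the libraries in 3 ways. Replicate 2 of week 12 lay farthest from the week 29 libraries, with correlations across genes of 0.908, 0.950 and 0.922. With its own week it correlated at 0.967 and 0.963, and the week 29 libraries correlated with each other at 0.960 to 0.967. Without replicate 2 of week 12 the same test called 17 rises and 51 falls. Without replicate 1 of week 29 it called 156 rises and 145 falls, without replicate 3 of week 29 it called 289 and 229, and a fit on the 6 libraries alone called 23 rises and 80 falls. Change also went with GC content: the genes that rose had a median transcript GC content of 41.9%, those that fell 57.4% and the rest 48.0%. For each library, the deviation of its genes from their means over the 24 libraries was fitted on GC content. The slope was -0.37, 0.05 and -0.08 log2 per 10 points in the week 29 libraries. In the week 12 libraries it was 0.10, 0.37 and 0.16, highest again in replicate 2 of week 12. After a correction of each library for GC content, 377 genes rose (2.65%) and 355 fell (2.5%), of which 281 and 250 were among the calls made without it. In addition, libraries of the same replicate number deviated together in this comparison, though not throughout the other arms. With the number as a block in every arm, 1880 genes rose and 1314 fell. The part of GC content or of a single library in the uncorrected calls was not tested further.

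**Figure D2:**
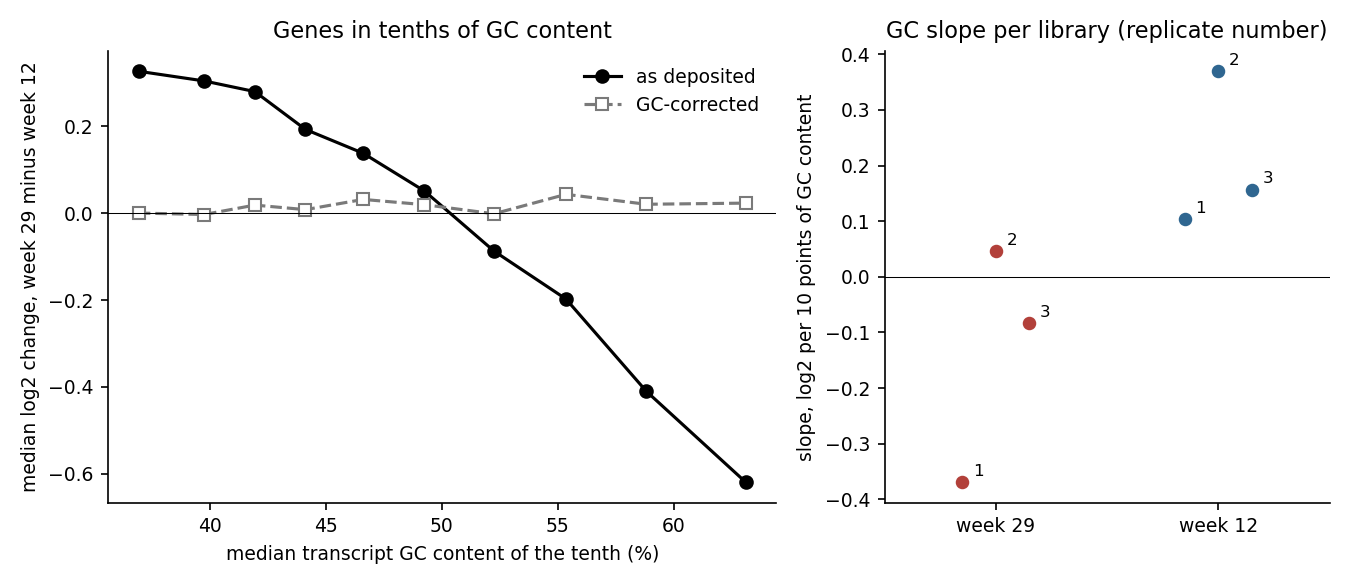
Left, median log2 change (week 29 minus week 12) of genes in 10 equal bins of transcript GC content, as deposited (filled) and GC-corrected (open). Right, the slope on GC content of each library's deviation from the mean of the 24 libraries, in log2 per 10 points. The lowest bin has a median change of 0.33 and the highest -0.62, and after correction all bins lie near 0.

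Under the fit described and all 16 alternatives, 29 genes were past the threshold in the same direction. They were 22 protein-coding genes that fell, 2 that rose (CLK1 and POLR3C), and 5 pseudogene, antisense or unnamed transcripts. The 22 falls were FOSB, JUN, KLF6, NR4A2, IER3 and CSRNP1 of the early response, and DUSP4, SPRY2, HBEGF, SMAD7, HES1, NFKBIA and NFKBIZ of signalling feedback. The others were PPP1R15A, PTGER4, PIM1, TRIB1, RHOB, ZFP36L1, DAG1, RNF207 and KRTAP3-1. The set was listed after its values were seen.

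Of the 25 members of the AP-1 and immediate early list that were tested, 22 fell and 0 rose, against 5.07% of all genes that fell. The median change was -1.58, beside 0.02 for all genes, and all 25 changes were below 0, though that of FOSL1 was 0.075 after a correction for GC content. In 24 of the 25, every week 29 library lay below every week 12 library, as in 14.9% of all genes. The list was drawn up with earlier results of these data known.

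FOSB, an AP-1 subunit, stood at 9.61, 10.0 and 8.70 FPKM in the week 29 libraries, against 118, 184 and 111 FPKM in the week 12 libraries (log2 change -3.76 ± 0.52, adjusted p = 0.000638). The week 29 libraries lay close together and all far below week 12, where replicate 2 was highest. CSRNP1, a nuclear protein first described as induced by AXIN1, had 1.72, 2.13 and 2.23 FPKM at week 29, against 14.8, 21.5 and 13.8 FPKM at week 12 (log2 change -2.75 ± 0.24, adjusted p = 1.55e-06). KLF6, a zinc finger transcription factor, had 45.9, 42.6 and 42.1 FPKM at week 29, against 153, 205 and 136 FPKM at week 12 (log2 change -1.89 ± 0.15, adjusted p = 8.5e-07). KLF6 had the lowest adjusted p of all genes, and neither it nor CSRNP1 overlapped between weeks.

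The orphan nuclear receptors were low at week 29. NR4A1 had 1.64, 2.11 and 1.19 FPKM at week 29, against 15, 47.3 and 19 FPKM at week 12 (log2 change -3.53 ± 0.75, adjusted p = 0.0115). Its replicate 2 at week 12 was more than the other week 12 libraries together. NR4A2 had 1.73, 1.12 and 0.90 FPKM at week 29, against 6.42, 9.04 and 5.41 FPKM at week 12 (log2 change -2.09 ± 0.31, adjusted p = 0.000939). NR4A3 was below 0.5 FPKM at week 29 and its change of -0.79 did not pass the test (adjusted p = 0.260).

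Among the EGR zinc finger factors, EGR1 had 18.8, 7.49 and 15.2 FPKM at week 29, against 51.2, 130.1 and 76.3 FPKM at week 12 (log2 change -2.58 ± 0.55, adjusted p = 0.0119). EGR2 had 1.17, 0.576 and 0.576 FPKM at week 29, against 3.89, 10.9 and 4.48 FPKM at week 12 (log2 change -2.34 ± 0.64, adjusted p = 0.0272). In both, the week 12 values were uneven, with replicate 2 the highest, and the lowest week 12 library still lay above every week 29 library. EGR3 did not pass the test at -1.72 (adjusted p = 0.0592), and passed with the replicate block (adjusted p = 0.0155).

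JUN, the main partner of FOS in AP-1, had 17.8, 17.3 and 16.2 FPKM at week 29, against 48.5, 58.9 and 49.1 FPKM at week 12 (log2 change -1.58 ± 0.21, adjusted p = 0.000634). FOS had 159, 119 and 123 FPKM at week 29, against 435, 473 and 324 FPKM at week 12 (log2 change -1.61 ± 0.39, adjusted p = 0.0171). ATF3, a stress-induced bZIP factor and the most abundant member of the list, had 277, 226 and 163 FPKM at week 29, against 661, 748 and 517 FPKM at week 12 (log2 change -1.55 ± 0.31, adjusted p = 0.00885). The libraries of the 2 weeks did not overlap in JUN, FOS or ATF3. MYC, at 92.7, 118 and 98.1 FPKM at week 29 against 215, 397 and 203 FPKM at week 12, fell by 1.33 ± 0.24 (adjusted p = 0.00544). FOSL1, a FOS-related subunit, overlapped between weeks and did not pass the test (log2 change -0.41 ± 0.25, adjusted p = 0.256).

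DUSP1 and ZFP36, which shorten the signal, fell as well, as did the early gene IER3. DUSP1, a phosphatase of p38 and JNK, had 44.1, 42.1 and 33.3 FPKM at week 29, against 162, 157 and 119 FPKM at week 12 (log2 change -1.86 ± 0.30, adjusted p = 0.00183). ZFP36, which binds AU-rich messages and promotes their decay, had 13.9, 10.6 and 7.79 FPKM at week 29, against 45.3, 50.4 and 26.6 FPKM at week 12 (log2 change -1.86 ± 0.29, adjusted p = 0.00137). IER3 had 28.8, 31.7 and 39.9 FPKM at week 29, against 94.1, 90.1 and 66.3 FPKM at week 12 (log2 change -1.30 ± 0.17, adjusted p = 0.000505). All 3 showed no overlap between weeks.

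**Figure D3:**
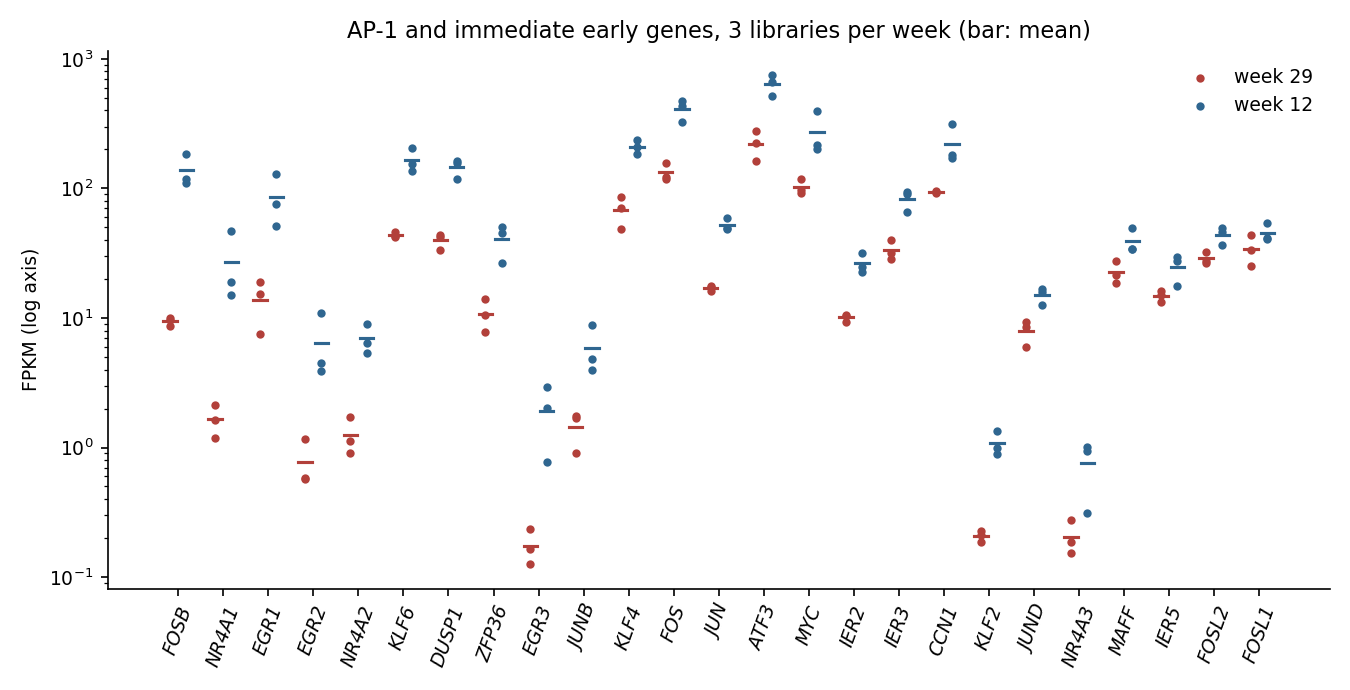
FPKM (log axis) of the 25 AP-1 and immediate early genes in each library of miR-186 clones in 100 nM iAs, 3 points per week with the mean as a bar, ordered by log2 change. In 24 of 25 genes every week 29 point lies below every week 12 point; FOSL1 is the exception.

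After the GC correction 15 of the 25 fell, with a median of -1.26, and JUND, at -0.90 before it, stood at -0.02. Without replicate 2 of week 12, 9 of the 25 fell with a median of -1.40, and with both changes 5 fell with a median of -1.23.

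The promoters of 3 of these genes are shown because elements recognised by CREB/ATF factors and by serum response factor have been described in this family. They are from RefSeq on GRCh38.p14, 250 bases before to 50 after the annotated start, 5′ to 3′ on the gene's strand. Capitals mark TGACG on either strand (read as CGTCA on the reverse) and, in EGR1, the CArG box. FOSB is at chr19:45467746-45468045, plus strand, EGR1 at chr5:138465229-138465528, plus strand and DUSP1 at chr5:172771146-172771445, minus strand.
FOSB: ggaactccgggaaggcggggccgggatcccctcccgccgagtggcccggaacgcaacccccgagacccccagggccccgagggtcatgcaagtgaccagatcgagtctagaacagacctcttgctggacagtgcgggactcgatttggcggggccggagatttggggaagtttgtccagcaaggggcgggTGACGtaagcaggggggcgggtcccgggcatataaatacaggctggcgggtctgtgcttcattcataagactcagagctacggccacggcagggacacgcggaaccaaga
EGR1: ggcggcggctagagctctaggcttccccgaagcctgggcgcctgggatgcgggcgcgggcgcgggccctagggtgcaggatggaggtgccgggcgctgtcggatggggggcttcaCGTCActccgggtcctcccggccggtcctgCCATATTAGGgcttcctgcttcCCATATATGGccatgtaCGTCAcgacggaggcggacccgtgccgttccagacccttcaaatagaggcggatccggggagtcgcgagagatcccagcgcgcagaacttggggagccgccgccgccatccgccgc
DUSP1: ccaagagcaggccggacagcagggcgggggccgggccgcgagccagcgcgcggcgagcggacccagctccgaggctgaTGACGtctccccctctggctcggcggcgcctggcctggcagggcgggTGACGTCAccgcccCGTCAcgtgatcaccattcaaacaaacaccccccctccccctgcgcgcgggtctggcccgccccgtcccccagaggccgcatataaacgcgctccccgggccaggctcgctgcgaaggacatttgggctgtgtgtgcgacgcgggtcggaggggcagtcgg
Of the 25 list members, 19 had an entry, and 12 of the 19 (63.2%) held TGACG on either strand, against 35.1% of 10328 promoters of genes tested and 25% of all 27305 promoters. In DUSP1, 2 of the 4 matches overlap as 1 palindrome. The CArG box was in 1 of the 19 (5.26%), EGR1, and in 0.988% of promoters of genes tested and 1.29% of all promoters. TGANTCA was in 1 of the 19 (5.26%), in 4.78% of promoters of genes tested and in 7.76% of all promoters. A match describes the letters in this window and was not tested as a site.

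EGFR signalling through the MAP kinases drives keratinocyte growth, and it induces its own ligands and inhibitors. In the EGFR ligand and MAPK output list, 7 of 25 members fell (28%, against 5.07% of all genes). The list had 0 rises, against 7.11% of all genes, and a median of -0.59. HBEGF, an EGFR ligand, had 36.1, 22.4 and 33.1 FPKM at week 29, against 94.5, 83.2 and 107 FPKM at week 12 (log2 change -1.64 ± 0.27, adjusted p = 0.00212). DUSP4, a nuclear phosphatase of ERK, had 19.9, 15.4 and 12.4 FPKM at week 29, against 54.2, 63.2 and 64.8 FPKM at week 12 (log2 change -1.92 ± 0.27, adjusted p = 0.000713). SPRY2, a Sprouty inhibitor of receptor tyrosine kinase signalling, had 5.57, 4.54 and 3.75 FPKM at week 29, against 19.8, 18.0 and 13.5 FPKM at week 12 (log2 change -1.78 ± 0.27, adjusted p = 0.00137). None of the 3 overlapped between weeks.

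IER3 is counted in this list too, and the remaining falls were SPRY4 (-1.09), DUSP5 (-1.63) and ERBB2 (-0.87). The ligands AREG, EREG and TGFA did not pass, at -0.36, -0.71 and 0.52, and neither did EGFR itself at 0.43. With the replicate block EREG and TGFA passed (adjusted p = 0.0151 and 0.0220). With the GC correction 6 members fell, without replicate 2 of week 12 there were 4, and with the replicate block 10.

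In the TGF-beta and SMAD feedback list 5 of 28 fell (17.9%, against 5.07% of all genes) and 0 rose, with a median of -0.47. All 5 were BMP2 or genes that SMAD signalling is known to induce. SMAD7, the inhibitory SMAD of TGF-beta receptors, had 4.04, 6.98 and 7.90 FPKM at week 29, against 33.4, 57.0 and 30.7 FPKM at week 12 (log2 change -2.58 ± 0.39, adjusted p = 0.00130). SMAD6, its counterpart for BMP receptors, had 1.28, 0.864 and 0.723 FPKM at week 29, against 4.59, 8.40 and 4.21 FPKM at week 12 (log2 change -2.06 ± 0.66, adjusted p = 0.0466). BMP2, a secreted ligand, had 6.18, 4.94 and 6.99 FPKM at week 29, against 23.9, 31.1 and 26.6 FPKM at week 12 (log2 change -2.09 ± 0.42, adjusted p = 0.00939).

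ID2 and ID3, which encode helix-loop-helix inhibitors and are BMP targets, had changes of -1.84 ± 0.40 and -1.94 ± 0.43 (adjusted p = 0.0121 and 0.0128). ID3 had 21.2, 25.4 and 45.0 FPKM at week 29, against 98.7, 113 and 128 FPKM at week 12, with no overlap. TGFBI, an extracellular target of TGF-beta, did not pass the test at -0.17. SMAD6 lost its call with the GC correction (adjusted p = 0.149). Without replicate 2 of week 12 only 1 member, SMAD7, kept its call, and with the replicate block 10 fell.

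In the WNT and NOTCH list 8 of 24 fell (33.3%, against 5.07% of all genes) and 0 rose, with a median of -0.79. HES1, the repressor induced by NOTCH, had 24.3, 19.2 and 19.2 FPKM at week 29, against 69.7, 117 and 60.1 FPKM at week 12 (log2 change -1.90 ± 0.26, adjusted p = 0.000638). APCDD1, a membrane inhibitor of WNT signalling, had 3.58, 2.04 and 2.00 FPKM at week 29, against 10.6, 15.4 and 9.77 FPKM at week 12 (log2 change -2.04 ± 0.38, adjusted p = 0.00615). Neither overlapped between weeks. The receptor NOTCH1 (-1.0), its ligands JAG1 (-1.08), JAG2 (-1.23) and DLL1 (-0.85), the WNT receptor-removing ligase ZNRF3 (-0.97) and WNT10A (-0.98) made up the rest. After the GC correction 3 fell and the median was -0.36. With the replicate block 14 fell, and without replicate 2 of week 12 only 1, HES1.

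Among inflammatory mediators and NF-kB targets, 7 of 26 fell (26.9%, against 5.07% of all genes) and 0 rose, with a list median of -0.18. PTGS2, the inducible cyclooxygenase, had 13.6, 10.3 and 5.54 FPKM at week 29, against 82.3, 201 and 54.9 FPKM at week 12 (log2 change -3.33 ± 0.66, adjusted p = 0.00846). PTGER4, a receptor of the prostaglandin E2 made downstream of it, is outside the list and had 2.68, 2.26 and 2.68 FPKM at week 29, against 12.4, 8.59 and 21.4 FPKM at week 12 (log2 change -2.18 ± 0.35, adjusted p = 0.00212). Replicate 2 of week 12 was the highest library for PTGS2 and the lowest of its week for PTGER4, and neither gene overlapped between weeks.

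NFKBIA, NFKBIZ and TNFAIP3, which regulate NF-kB, fell. NFKBIA had 89.4, 77.5 and 102 FPKM at week 29, against 229, 167 and 207 FPKM at week 12 (log2 change -1.16 ± 0.19, adjusted p = 0.00281). NFKBIZ, a nuclear IkB protein, had 36.5, 30.9 and 46.4 FPKM at week 29, against 139, 131 and 229.8 FPKM at week 12 (log2 change -2.09 ± 0.25, adjusted p = 0.000229). TNFAIP3, a deubiquitinase that restrains NF-kB, fell by 1.02 ± 0.31 (adjusted p = 0.0413). Of the cytokines, IL1B had 23.2, 21.6 and 34.6 FPKM at week 29, against 77.4, 60.6 and 108 FPKM at week 12 (log2 change -1.60 ± 0.36, adjusted p = 0.0130), and IL6 had 29.4, 19.1 and 21.4 FPKM at week 29, against 75.5, 63.3 and 109 FPKM at week 12 (log2 change -1.79 ± 0.48, adjusted p = 0.0250). The chemokines CXCL1, CXCL8 and CCL20 had changes of -0.16, -0.65 and 0.02 that did not pass. With the GC correction 5 members fell, and without replicate 2 of week 12 there were 2.

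YAP and TEAD activate genes of growth and matrix in spread cells. Of 25 genes of that list 7 fell (28%, against 5.07% of all genes) and 0 rose, with a median of -0.10. The secreted matrix protein CCN2 had 5.96, 5.96 and 5.26 FPKM at week 29, against 21.1, 19.8 and 14.1 FPKM at week 12 (log2 change -1.58 ± 0.33, adjusted p = 0.0111). CCN1, which is also an early gene, had 91.7, 96.0 and 93.6 FPKM at week 29, against 172, 314 and 180.5 FPKM at week 12 (log2 change -1.18 ± 0.35, adjusted p = 0.0347). YAP1 and TEAD1 did not pass, at 0.23 and 0.26. After the GC correction 3 members fell, and without replicate 2 of week 12, 0 did with a median of 0.11.

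In the AHR and retinoid list, of targets and receptors, 4 of 15 fell (26.7%, against 5.07% of all genes) and 0 rose. With the GC correction 2 fell, without replicate 1 or replicate 3 of week 29 there was 1, and without replicate 2 of week 12 there were 0. CYP1B1, a monooxygenase induced through the aryl hydrocarbon receptor, had 10.0, 8.42 and 7.14 FPKM at week 29, against 28.6, 30.9 and 23.6 FPKM at week 12 (log2 change -1.65 ± 0.40, adjusted p = 0.0177). TIPARP, another target of that receptor, had 60.9, 40.8 and 56.8 FPKM at week 29, against 110.0, 117 and 131 FPKM at week 12 (log2 change -1.18 ± 0.26, adjusted p = 0.0122). The weeks did not overlap in either gene. The other falls were ALDH1A3 (-0.78) and the receptor RARG (-0.70). CYP1A1, NQO1 and ALDH3A1 did not pass, at -0.48, 0.38 and -0.26.

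RHOB, an immediate early gene of a small GTPase, is in none of these lists. It had 8.34, 8.60 and 6.68 FPKM at week 29, against 24.6, 32.3 and 32.3 FPKM at week 12 (log2 change -1.85 ± 0.18, adjusted p = 8.26e-06), without overlap. TRIB1, a pseudokinase, had 50.6, 44.4 and 40.5 FPKM at week 29, against 158, 247 and 155 FPKM at week 12 (log2 change -2.0 ± 0.26, adjusted p = 0.000442). PIM1, a serine/threonine kinase, had 15.8, 23.5 and 21.3 FPKM at week 29, against 43.7, 59.8 and 46.8 FPKM at week 12 (log2 change -1.30 ± 0.19, adjusted p = 0.00118). PPP1R15A, which returns phosphorylated eIF2 alpha to its active form, fell by 1.21 ± 0.17, to 61.0, 81.2 and 71.9 FPKM at week 29, against 152, 202 and 146 FPKM at week 12. These genes were picked after their values were seen.

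**Figure D4:**
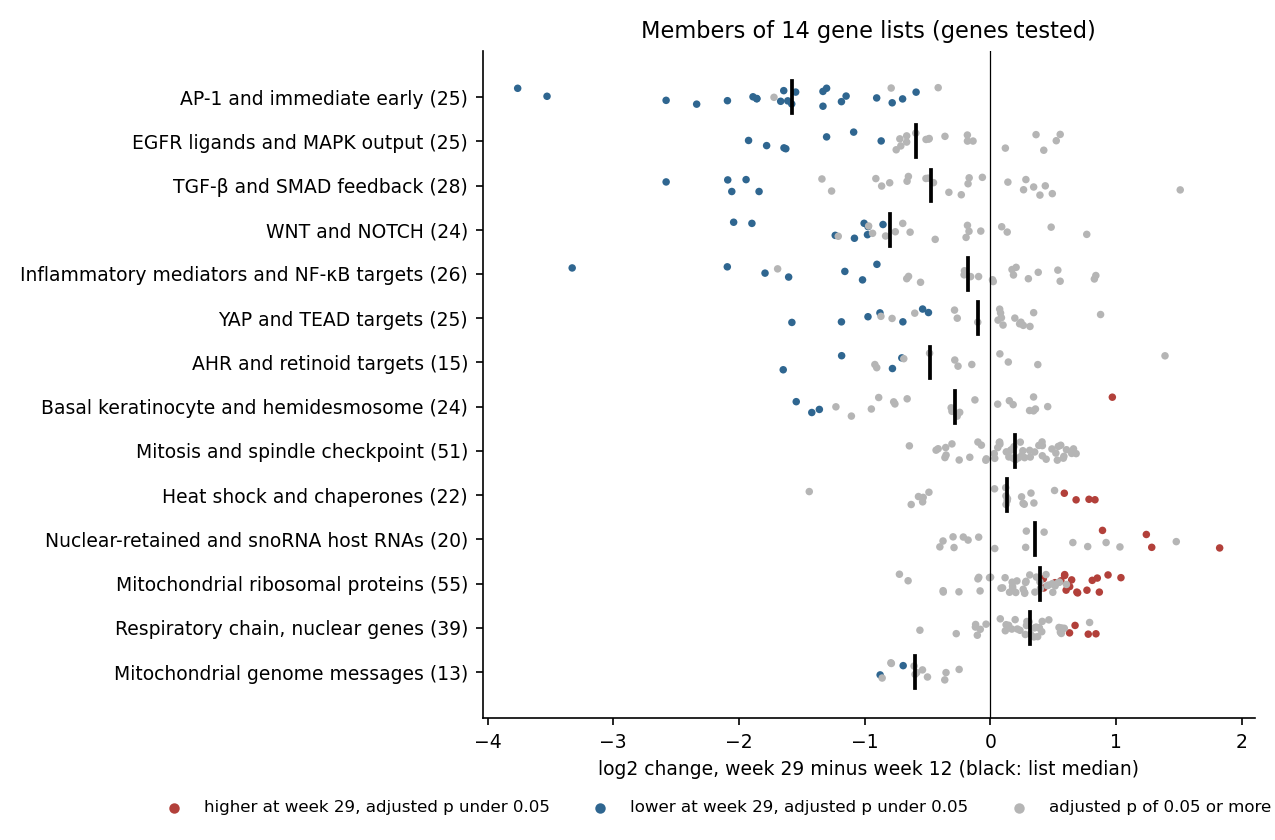
Log2 change (week 29 minus week 12) of every tested member of 14 gene lists, 1 point per gene, coloured by direction where limma's adjusted p was below 0.05, with the list median as a black bar. All 25 immediate early genes lie left of 0. The signalling lists have medians below 0 but members on both sides. In the YAP and TEAD list 12 of 25 genes lie above 0, and in the inflammatory list 11 of 26. Of 55 mitochondrial ribosomal protein genes 46 lie right of 0, while all 13 messages of the mitochondrial genome lie left.

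Mitochondria translate 13 messages of their own genome on ribosomes whose proteins come from nuclear genes. These groups moved apart. Of 55 mitochondrial ribosomal protein genes 17 rose, against 7.11% of all genes that rose, and 0 fell, with a median of 0.40. In 29 of the 55 every week 29 library lay above every week 12 library, as in 18% of all genes. MRPL47 had 76.9, 76.2 and 78.6 FPKM at week 29, against 41.6, 26.8 and 46.6 FPKM at week 12 (log2 change 1.04 ± 0.20, adjusted p = 0.00656). MRPL15 had 119, 113 and 130.3 FPKM at week 29, against 78.7, 49.2 and 76.6 FPKM at week 12 (log2 change 0.85 ± 0.17, adjusted p = 0.00885). Both encode proteins of the large subunit, and in both replicate 2 of week 12 was the lowest library.

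MRPS5 of the small subunit had 49.8, 48.1 and 56.8 FPKM at week 29, against 32.6, 29.6 and 40.7 FPKM at week 12 (log2 change 0.59 ± 0.12, adjusted p = 0.0111). Of 39 nuclear genes of the respiratory chain 4 rose (10.3%, against 7.11% of all genes) and 0 fell, with a median of 0.32. The count was 2 with the GC correction and 11 with the replicate block or without replicate 3 of week 12. It was 0 without replicate 2 of week 12, with a median of 0.16, without replicate 1 or 3 of week 29 and in the fit on 6 libraries. SDHD, an anchor subunit of succinate dehydrogenase, had 171, 162 and 224 FPKM at week 29, against 123, 69.5 and 126 FPKM at week 12 (log2 change 0.84 ± 0.22, adjusted p = 0.0210). TFAM, which packages mitochondrial DNA and starts its transcription, had 37.2, 33.7 and 37.9 FPKM at week 29, against 24.3, 20.8 and 22.5 FPKM at week 12 (log2 change 0.67 ± 0.17, adjusted p = 0.0186). Neither overlapped between weeks, and both lost the call with the GC correction (adjusted p = 0.0589 for SDHD and 0.0896 for TFAM).

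All 13 messages of the mitochondrial genome had changes below 0, with a median of -0.60, and 2 fell (15.4%, against 5.07% of all genes). MT-CO1 had 15707, 12049.5 and 14592 FPKM at week 29, against 23160.3, 32993 and 22356 FPKM at week 12 (log2 change -0.88 ± 0.26, adjusted p = 0.0379). MT-CO2 had 24647, 17569.6 and 20830.1 FPKM at week 29, against 35033, 38573 and 28207 FPKM at week 12 (log2 change -0.69 ± 0.20, adjusted p = 0.0359). Both encode subunits of cytochrome c oxidase, and their libraries did not overlap between weeks. In 7 of the 13 every week 29 library lay below every week 12 library, as in 14.9% of all genes. The 13 messages made up 15.1%, 10.3% and 13.3% of summed FPKM in the week 29 libraries, against 19.8%, 24.5% and 15.9% in the week 12 libraries, highest in replicate 2 of week 12.

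**Figure D5:**
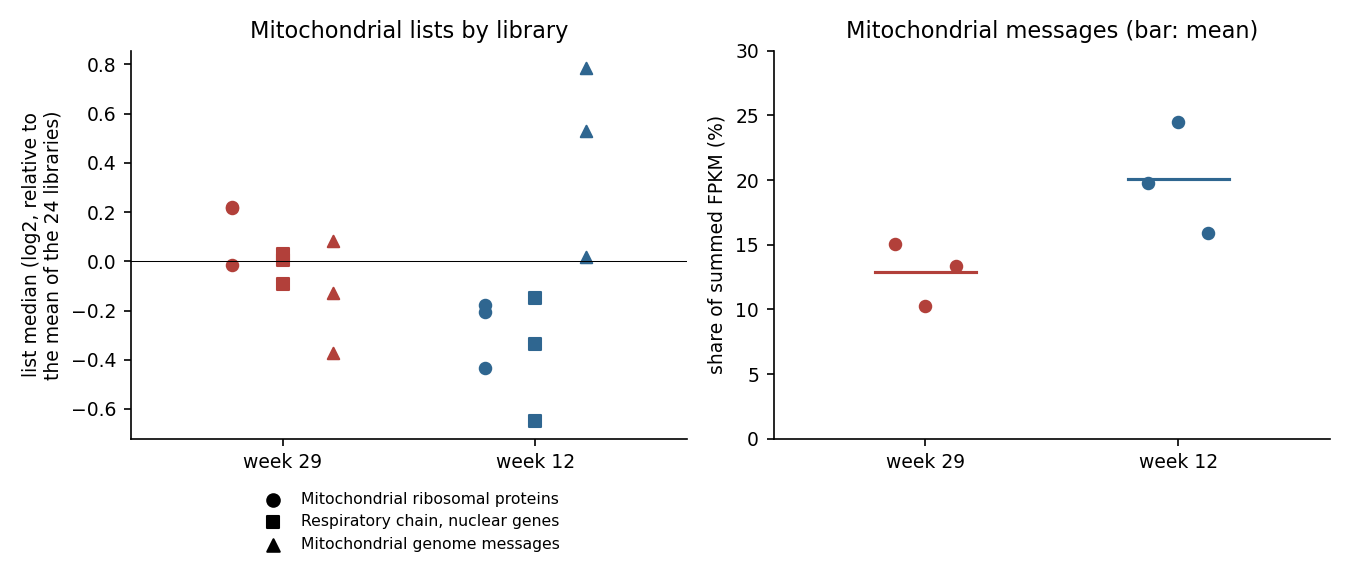
Left, median over each list of the log2 deviation from the mean of the 24 libraries, 1 point per library. Right, share of summed FPKM held by the 13 messages of the mitochondrial genome, with the mean as a bar. Week 29 libraries lie above week 12 for the ribosomal proteins and below it for the share, which spans 10.3% to 15.1% at week 29. The list medians of the mitochondrial messages overlap, with 0.08 in replicate 1 of week 29 and 0.02 in replicate 3 of week 12.

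With the GC correction 13 ribosomal protein genes rose and 4 mitochondrial messages fell. Without replicate 2 of week 12, 0 of either passed, with medians of 0.30 and -0.49, and 0 passed in the fit on 6 libraries. With the block and the GC correction together, 22 ribosomal protein genes rose and 9 messages fell.

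OLR1, a receptor of oxidised LDL, had 264, 265 and 352 FPKM at week 29, against 81.7, 69.9 and 104 FPKM at week 12 (log2 change 1.79 ± 0.34, adjusted p = 0.00737). ALOX5AP, which presents arachidonic acid to 5-lipoxygenase, had 3.50, 3.23 and 7.99 FPKM at week 29, against 0.998, 0.568 and 0.755 FPKM at week 12 (log2 change 1.99 ± 0.63, adjusted p = 0.0449). Every week 29 library was above every week 12 library in both. ALOX5AP lost its call with the GC correction (adjusted p = 0.0745).

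ADAMTS6 (GRCh38 chromosome 5, 65148736 to 65481920, minus strand), a secreted metalloprotease, had 5.43, 4.32 and 5.70 FPKM at week 29, against 1.72, 0.724 and 1.69 FPKM at week 12 (log2 change 1.63 ± 0.26, adjusted p = 0.00193). RAB38, a GTPase of lysosome-related organelles, had 110.4, 99.4 and 162 FPKM at week 29, against 55.4, 27.4 and 57.2 FPKM at week 12 (log2 change 1.44 ± 0.36, adjusted p = 0.0188). NABP1, a single-stranded DNA binding protein of repair complexes, had 48.9, 30.3 and 68.4 FPKM at week 29, against 18.4, 9.29 and 18.5 FPKM at week 12 (log2 change 1.63 ± 0.40, adjusted p = 0.0182). The other named protein-coding genes among the 15 largest rises were KLHL5 (1.83), TMEM52B (1.68), SLC25A21 (1.56), TRIML2 (1.48) and CTNNAL1 (1.42). NABP1 and CTNNAL1 lost their calls with the GC correction (adjusted p = 0.0547 and 0.0540). In SLC25A21, TRIML2 and KLHL5 the week 29 libraries spread widely, over 1.25, 1.77 and 4.54 FPKM, 5.57, 10.2 and 2.78 FPKM and 52.0, 71.0 and 24 FPKM.

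CLK1, a kinase that phosphorylates SR splicing factors, had 96.8, 71.4 and 72.3 FPKM at week 29, against 31.0, 36.6 and 38.8 FPKM at week 12 (log2 change 1.16 ± 0.17, adjusted p = 0.00126). POLR3C, a subunit of RNA polymerase III, had 61.4, 54.1 and 54.2 FPKM at week 29, against 33.1, 26.9 and 26.7 FPKM at week 12 (log2 change 0.96 ± 0.18, adjusted p = 0.00582). These were the 2 rises past the threshold under every alternative, and neither overlapped between weeks. Of 20 nuclear-retained and small nucleolar RNA host transcripts 4 rose (20%, against 7.11% of all genes) and 0 fell. SNHG1 had 633, 499 and 574 FPKM at week 29, against 188, 140.0 and 154 FPKM at week 12 (log2 change 1.82 ± 0.36, adjusted p = 0.00810). ZFAS1 had 1892, 2968 and 1725 FPKM at week 29, against 1128, 594 and 999 FPKM at week 12 (log2 change 1.28 ± 0.30, adjusted p = 0.0159). GAS5, a host transcript degraded when ribosomes translate it, rose by 1.24 ± 0.36 and lost its call with the GC correction (adjusted p = 0.0915). With the block 9 of the 20 rose, and without replicate 2 of week 12, 0 did.

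The stress lists did not move as one. Of 27 genes of the unfolded protein and integrated stress response 2 rose (7.41%) and 2 fell (7.41%). These shares lie near those of all genes, of which 7.11% rose and 5.07% fell. DDIT3, the transcription factor CHOP, had 197, 257 and 170.3 FPKM at week 29, against 93.4, 101 and 135 FPKM at week 12 (log2 change 0.92 ± 0.20, adjusted p = 0.0122), while ATF3 and PPP1R15A of the same pathway fell. Of 6 metallothioneins tested 1 rose (16.7%). This was MT1E, with 179, 188 and 227 FPKM at week 29, against 108, 76.9 and 92.4 FPKM at week 12 (log2 change 1.10 ± 0.24, adjusted p = 0.0122). Of 22 heat shock genes 4 rose (18.2%) and 0 fell, among them HSPA4 (0.59) and HSPH1 (0.68), and 1 rose with the GC correction. Of 30 NRF2 targets 1 rose (3.33%), TXNRD1 (0.75), and 0 with the GC correction. Of 27 p53 targets 2 fell (7.41%, against 5.07% of all genes). One of them was CDKN1A, the inhibitor p21, with 21.8, 42.5 and 23.4 FPKM at week 29, against 66.4, 79.6 and 56.2 FPKM at week 12 (log2 change -1.24 ± 0.24, adjusted p = 0.00737). HaCaT carries mutant p53. Without replicate 2 of week 12, 0 genes of the metallothionein, heat shock, NRF2 and p53 lists passed, and of the unfolded protein and integrated stress response 0 rose and 1 fell.

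Of 51 mitosis genes, which include reported targets of miR-186, 0 rose and 0 fell by limma, and their median was 0.20. An unadjusted limma p below 0.05 was found for 2 of the 51, against 4542 of all 14228 genes. The libraries of each week were far apart. The median deviation of the list from the mean of the 24 libraries was 0.02, -1.29 and 0.50 in the week 29 libraries, against -0.84, -0.81 and 0.13 in the week 12 libraries. TOP2A, which untangles chromosomes, had 107, 29.4 and 88.3 FPKM at week 29, against 51.9, 45.8 and 100.2 FPKM at week 12 (log2 change 0.07 ± 0.42, adjusted p = 0.919). Replicate 2 was the lowest library at week 29 and replicate 3 the highest at both weeks for the list. Without replicate 2 of week 29, 8 of the 51 rose and the median was 0.73.

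The cells carried keratinocyte markers, with all 9 of those checked at 1 FPKM or more in some library. Their summed level was 1480 to 2705 FPKM at week 29, against 2756 to 4222 FPKM at week 12, without overlap, and KRT5, KRT14 and KRT17 made up most of it. Of the other markers, the adhesion protein CDH1 had 253, 199 and 284 FPKM at week 29, against 256, 219 and 243 FPKM at week 12. PERP of desmosomes had 159, 115 and 169 FPKM at week 29, against 146, 122 and 142 FPKM at week 12. The integrin ITGA6 had 137, 89.5 and 164 FPKM at week 29, against 109, 108 and 117 FPKM at week 12. The weeks overlapped in all 3, and in TP63 and SFN as well. The integrin ITGB4 had 31.8, 67.5 and 61.1 FPKM at week 29, against 78.1, 125 and 97.6 FPKM at week 12, without overlap. It did not pass the test (log2 change -0.95, adjusted p = 0.0878). KRT17, a keratin of activated keratinocytes, had 349.8, 915 and 673 FPKM at week 29, against 1055, 2076 and 1666 FPKM at week 12 (log2 change -1.36 ± 0.44, adjusted p = 0.0494), and lost its call with the GC correction (adjusted p = 0.0733). KRT5 and KRT14, the basal pair, did not pass, at -0.76 (adjusted p = 0.0607, or 0.0486 with the replicate block) and -1.11 (adjusted p = 0.128). In bulk RNA, fewer cells of a kind and less message per cell cannot be told apart. Of 24 basal and hemidesmosome genes 1 rose (4.17%, against 7.11% of all genes) and 3 fell (12.5%, against 5.07%). After the GC correction 1 rose and 0 fell. Without replicate 2 of week 12, 0 passed in either direction. LAMA5, a chain of laminins of the basement membrane, fell by 1.42 and lost its call with the GC correction (adjusted p = 0.0597).

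Of 7 fibroblast markers 3 reached 1 FPKM in some library, and PDGFRA was listed at 0 in all 6. Their sum was 1.75 to 3.82 FPKM at week 29, against 3.49 to 22.9 FPKM at week 12, where DCN reached 15.4 FPKM in replicate 2. Of melanocyte, endothelial and leukocyte markers 1 of 6, 1 of 4 and 1 of 4 reached 1 FPKM, namely PMEL, CDH5 and CD68. Their part in the results was not tested.

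The microRNA's own gene, MIR186, was listed at 0 in all 24 libraries, which were made from poly(A) RNA and do not measure a mature microRNA. Its host gene ZRANB2 had 37.2, 38.4 and 30.4 FPKM at week 29, against 36.3, 35.5 and 32.4 FPKM at week 12, overlapping. Of 21 genes tested from a list of miR-186 targets in the literature, 2 rose (9.52%, against 7.11% of all genes) and 4 fell (19.05%, against 5.07%), with a median of 0.07. The largest fall of these was SMAD7 (-2.58), which is counted in the TGF-beta list too. With the GC correction 0 rose and 2 fell, with a median of -0.04, and without replicate 2 of week 12, 0 rose and 1 fell.

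Whether the change between weeks depended on iAs was asked by subtracting the change in miR-186 clones at 0 nM from that at 100 nM. By limma 0 of 14228 genes passed, with 439 at an unadjusted p below 0.05 and a lowest adjusted p of 1. Against vector clones at 100 nM, 0 genes passed as well, with 362 at an unadjusted p below 0.05. Both counts are a smaller share of the genes than the 0.05 of that threshold. For the change between weeks itself the count was 4542. A difference that misses the threshold does not show that the arms changed alike. The median change of the immediate early list was -1.58 in miR-186 clones at 100 nM, -1.58 in miR-186 clones at 0 nM, -1.04 in vector clones at 100 nM and -1.54 in vector clones at 0 nM. FOSB changed by -3.76 in miR-186 clones at 100 nM, and its values were -3.52, -2.49 and -2.98 in the other arms in the same order. Medians in this order of arms were -0.47, -0.31, -0.42 and -0.55 for the TGF-beta list. They were -0.18, -0.28, -0.30 and -0.58 for the inflammatory list and 0.36, 0.43, 0.42 and 0.59 for the host RNAs. The EGFR list had -0.59, -0.32, -0.25 and -0.27, and the WNT and NOTCH list -0.79, -0.60, -0.43 and -0.22. Mitochondrial ribosomal proteins had 0.40, 0.16, 0.20 and 0.06.

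ADAMTS6 had the smallest p of the genes higher in both differences. Its change was 1.63 in miR-186 clones at 100 nM, against -0.15 in miR-186 clones at 0 nM, -0.10 in vector clones at 100 nM and -0.55 in vector clones at 0 nM. The differences were 1.78 ± 0.37 with iAs and 1.73 ± 0.37 with the construct, both at an adjusted p of 1. FOXA1, a pioneer transcription factor, had 25.9, 15.7 and 22.1 FPKM at week 29, against 39.4, 53.9 and 48.9 FPKM at week 12 (log2 change -1.16 ± 0.17, adjusted p = 0.000857), and its change was -0.02 in vector clones at 100 nM. That difference of -1.14 ± 0.24 did not pass either (adjusted p = 1). RHOB, with a difference of -0.97 ± 0.25 from vector clones, and SOX9, an epithelial factor, with -0.90 ± 0.24, stood next to it and did not pass. For the 13 mitochondrial messages the median change was -0.60 in miR-186 clones at 100 nM, 0.39 in miR-186 clones at 0 nM, -0.43 in vector clones at 100 nM and -0.16 in vector clones at 0 nM. In miR-186 clones at 0 nM their share of summed FPKM was 12.9%, 18.7% and 12.4% at week 29, against 13.6%, 11.8% and 12.98% at week 12, so that replicate 2 of week 29 alone stood above week 12. No single gene of that list passed the test of the difference.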

How the data were processed

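Poly(A) libraries (TruSeq Stranded mRNA) were made from total RNA and sequenced together, per the labels' protocols. Reads were aligned with STAR 2.6.0c to GRCh38 (hg38), and the authors deposited FPKM per gene from Cuffdiff 2.2.1, per the submitters' processing notes. The annotation, strand setting and read counts are not given in the sources used here. Antisense transcripts are therefore not described. The table has 58381 gene IDs, of which 57740 matched a symbol, and 0 value columns were left unmapped. No pair of libraries was identical, and summed FPKM were 752021 to 838574 in the 6 libraries.

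limma 3.58.1 (R 4.3.3), with trend and robust moderation, was fitted to log2(FPKM + 0.5) of all 24 libraries with 1 mean for each of the 8 groups, giving 16 residual degrees of freedom. The 14228 genes averaging 0.5 FPKM or more entered. To correct for GC content, each library's deviations from the gene means of the 24 libraries were fitted on it, and the fit was removed. The fit used GC content of the longest transcript (GENCODE 29), a natural spline (5 df) and genes above 1.5 FPKM. The correction covers 14208 genes. Both the limma fit and the correction were checked on simulated data.

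The replicate numbers were checked as a pairing before blocked counts were made. Deviations from group means of same-numbered libraries correlated, across genes, at 0.34, 0.41 and 0.39 for numbers 1, 2 and 3. All exceed 0.1, so the number was used as a block in an alternative fit. The main fit has no block, and its counts, standard errors and p-values do not use the pairing. The pairing rests on the data, since no label states it. It did not hold in the other arms checked, with 0.09, 0.42 and 0.34 in miR-186 clones at 0 nM and -0.14, 0.29 and -0.24 in vector clones at 100 nM, and the blocked fit uses the number in every arm.

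The comparison, the 33 gene lists and the rules were chosen with earlier results of these data known. Named genes are the 15 largest rises and falls past the threshold whose higher week averaged 1 FPKM or more and whose weeks did not overlap, the 5 with the smallest p in each direction for differences of changes, and up to 4 members of each list with the smallest p. Further members were named after their values were seen, and pseudogenes and unnamed IDs were left out. A few genes under the rule are not reported here. Alternatives were another pseudocount (0.1 or 1), filters, median ratio scaling, the GC correction, the replicate block, both together, a fit on the 6 libraries and each library left out. The GC correction without replicate 2 of week 12 was added after seeing the data.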

Additional observations from a re-analysis of the deposited data

How the results depend on the processing

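The comparison of weeks in miR-186 clones at 100 nM called 1732 genes, 1011 rises and 721 falls. The count was within 1.5 times of this with a pseudocount of 0.1 or 1, with a filter at 1 FPKM, with median ratio scaling and with the GC correction and replicate block together. It was 819 (461 rises, 358 falls) with no filter on low values and 732 (377 and 355) with the GC correction. It was 3194 (1880 and 1314) with the replicate block, 103 (23 and 80) in a fit on only the groups compared, and 63 (18 and 45) with the GC correction and without replicate 2 of week 12. Leaving out each library in turn gave 68 to 2197 genes, 17 to 1204 rises and 51 to 993 falls. The lowest was without replicate 2 of week 12, followed by 301 without replicate 1 and 518 without replicate 3 of week 29. The smaller fit has fewer residual degrees of freedom, and otherwise the cause was not tested.

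The difference of changes between 100 nM and 0 nM, 0 genes, was 4 with no filter and 0 to 1 with a library left out. The difference from vector clones was 1 with no filter and 0 to 0 with a library left out. Of 131 genes followed singly 112 were called, and none of the 112 changed sign under any alternative. Of the 131, 90 kept their direction and side of the threshold with the GC correction, 125 with the block and 47 without replicate 2 of week 12. With the block KRT5, EGR3, EREG, IVL, TGFA and MT-CYB gained a call, and for the other 125 the call was unchanged.

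CCL20, FOSL1, TOP2A, TEAD1, AREG and CXCL1, none of them called, changed sign. CCL20 stood at -0.011 with median ratio scaling, -0.31 with the GC correction, with or without the block, and -0.79 with that correction and without replicate 2 of week 12. FOSL1 stood at 0.075 with the GC correction, with or without the block, and 0.12 with that library left out as well. TOP2A stood at -0.24 and -0.37 in the same settings, and TEAD1 at -0.012 with the GC correction, with or without the block. With 1 library left out, AREG ranged over -0.79 to 0.00061, CCL20 over -0.57 to 0.52, CXCL1 over -0.46 to 0.25 and TOP2A over -0.28 to 0.64. The cause was not tested. FPKM carry no depth, so the precision of low genes could not be set.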

Other observations

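In the lists not described above few genes passed. Their shares are given in brackets, and of all genes 7.11% rose and 5.07% fell. Of 58 cytosolic ribosomal protein genes 3 rose (5.17%) and 0 fell. The list's median deviation from the mean of the 24 libraries was -0.13, 0.69 and -0.00 at week 29. At week 12 it was -0.01, -0.14 and -0.00, so that replicate 2 of week 29 stood above the other 5. In the SR protein and splicing list 3 of 31 rose (9.68%) and 1 fell (3.23%). In the DNA replication list 1 of 39 rose (2.56%) and 2 fell (5.13%). The replication list had deviations of -0.36, -0.71 and 0.66 at week 29, against -0.35, -0.55 and 0.01 at week 12, highest in replicate 3 of week 29. Of 25 differentiation and cornification genes 3 fell (12%) and 0 rose, EVPL (-1.17) and OVOL1 (-1.09) among them. IVL, the precursor of the cornified envelope protein involucrin, had 15.8, 26.8 and 10.3 FPKM at week 29, against 56.9, 321 and 109 FPKM at week 12, without overlap, and did not pass the test (log2 change -2.91 ± 0.97, adjusted p = 0.0543), while it did with the replicate block (adjusted p = 0.000891).

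Of 25 desmosome and tight junction genes 2 rose (8%), and of 22 extracellular protease genes 2 rose (9.09%) and 1 fell (4.55%). TIMP1, an inhibitor of metalloproteases, fell to 34.3, 49.5 and 36.2 FPKM at week 29, against 90.6, 113 and 69.3 FPKM at week 12 (log2 change -1.17 ± 0.25, adjusted p = 0.0115). Of 39 interferon response genes 1 rose (2.56%), IFIT5 (0.77), and 1 fell (2.56%), IFITM1 (-1.74). Of 31 hypoxia genes 1 fell (3.23%), ANKRD37 (-0.87), and of 31 cholesterol and fatty acid genes 1 fell (3.23%). Of 29 stress keratin, S100 and SERPINB genes 1 fell (3.45%), S100A11 (-0.71). Without replicate 2 of week 12, 1 splicing gene and 1 protease gene rose, 1 differentiation gene fell, and 0 genes of the other lists named so far passed. By limma 0 genes passed in 4 further lists. These were 22 mesenchymal transition genes with 5 at an unadjusted p below 0.05, 11 arsenic methylation and transport genes with 3, 19 microRNA processing genes with 3 and 10 clone or imprinted markers with 0. Of all 14228 genes, 4542 had an unadjusted limma p below 0.05.

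After the GC correction genes of chromosome 11 had a median change of 0.15. Their deviations were 0.05, 0.03 and 0.11 in the week 29 libraries, against 0.01, -0.01 and -0.22 in the week 12 libraries, so the difference lay in replicate 3 of week 12.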
